A study of Drosophila melanogaster with 2 samples.

Results

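3LHet is a scaffold of Release 5 (dm3) of the *Drosophila melanogaster* genome that holds heterochromatic sequence of the left arm of chromosome 3, kept apart from the assembled arm 3L. It was divided into bins of 300 bp from its first base, and an H3K9me2 tag was added to each bin that it touched. Of the 8516 bins up to the last tag at 2554645, 6304 held at least 1 tag in either library, and these are the bins described here, out of 446655 such bins in the whole series. The limit of 1 tag kept 138 bins with exactly 1 tag over both libraries and left out 2212 bins with none. The data are 2 ChIP-seq libraries from whole larvae of the third instar, 1 of EHMTDD1 and 1 of EHMT+. EHMTDD1 larvae (labelled EHMT-KO) carry a deletion left by an imperfect excision of the P element KG01242 from EHMT, which removes the translational start. EHMT+ larvae (labelled wild type) come from a precise excision of the same P element, so that both strains went through the excision and share their background. Each strain is 1 excision line.

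Heterochromatin in flies is rich in transposons and other repeats and is marked by methylation of lysine 9 of histone H3, to which the protein HP1 binds. Several enzymes place this mark. Su(var)3-9 and eggless act mainly in heterochromatin, whereas EHMT (also called G9a) is known as a methyltransferase of euchromatin. The comparison on 3LHet addresses whether H3K9me2 in assembled heterochromatin differed between larvae without and with EHMT, and where. Since each genotype has a single library, the differences below are without replicates and carry no p-values. Intervals are 95% intervals that cover counting error only, and those for shares of bins treat neighbouring bins as independent although they share tags, which makes them too narrow.

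Both libraries were equalized by the authors to 7043913 tags, and no 2 tags of a library on 3LHet share a start and a strand. 3LHet held 157493 EHMTDD1 tags (2.24% of the library) and 147860 EHMT+ tags (2.10%), a ratio of EHMT+ to EHMTDD1 of 0.939 (0.932 to 0.946, exact conditional binomial). Over bins with a tag the density was 83.3 tags per kb in EHMTDD1 and 78.2 in EHMT+, which is 1.55 and 1.45 times the density of the euchromatic arms and chromosome 4. The scaffold as a whole therefore had slightly more tags in the mutant. No input library was used here, so H3K9me2, the number of copies of a sequence and the share of it that maps uniquely cannot be told apart. Genes, repeats and base composition were not analysed here.

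Tags were unevenly recovered along 3LHet. The bins with a tag formed 327 islands with a median of 7 bins, and the longest island ran for 211 bins from 199801 to 263100. Between them lay stretches without a tag in either library, 63 of which had at least 10 bins. The longest of these covered 48600 bp from 2325601 to 2374200, and the next covered 30300 bp from 1451101 to 1481400. Tags with a unique position were kept by the authors, and what part repeats or gaps in the assembly have in these stretches was not tested.

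The levels within 3LHet were spread more widely in EHMTDD1 than in EHMT+. The median bin had 26 tags in EHMTDD1 and 40 in EHMT+, while the mean was 49.9 tags in EHMTDD1 and 46.8 in EHMT+. The quartiles were 6 and 77 tags in EHMTDD1, against 12 and 74 tags in EHMT+. EHMTDD1 thus had more bins at both ends. Bins with fewer than 10 tags made up 31.8% in EHMTDD1 and 21.6% in EHMT+, and bins with at least 100 tags made up 18.0% in EHMTDD1 and 10.2% in EHMT+. Euchromatin had the same direction at lower shares, with 9.85% in EHMTDD1 and 1.80% in EHMT+ under 10 tags, and 1.27% in EHMTDD1 and 0.792% in EHMT+ at 100 tags or more. At 150 tags or more there were 494 bins (7.84%) on 3LHet in EHMTDD1 and 52 (0.825%) in EHMT+, against 1301 (0.351%) and 215 (0.0580%) in euchromatin. In 493 of the 494 bins EHMT+ had fewer tags, with a median of 113, but they were chosen by their EHMTDD1 count. The coefficient of variation over bins was 1.16 in EHMTDD1 and 0.813 in EHMT+, compared with 0.674 and 0.501 in the euchromatic bins. EHMTDD1 had no tag in 567 bins (8.99%, against 0.666% of euchromatic bins) and EHMT+ had none in 50 bins (0.793%, against 0.0912%).

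For each bin the log2 ratio of EHMT+ to EHMTDD1 was taken after adding 1 to both counts, so that a positive value means fewer tags in EHMTDD1. Its median on 3LHet was 0.11, its SD was 1.33, and the 5th and 95th percentiles were −1.14 and 3.06. The sign of the median depends on bins with few tags, since it was −0.065 over the 4830 bins in which the 2 libraries summed to 20 tags or more. Limits for loss and gain were computed here outside the scaffold, at the mean plus and minus 2 SD of 384454 euchromatic bins. They were a log2 ratio of 1.90, or 3.74-fold fewer tags in EHMTDD1, and −1.56, or 2.96-fold more. On 3LHet, 1052 bins (16.7%, Wilson interval 15.8 to 17.6%) were above the upper limit, where 5.37% of euchromatic bins were. The lower limit was passed by 104 bins (1.65%, 1.36 to 1.99%), where 0.243% of euchromatic bins were below it. Of these 104 bins, 65 were sparse, with the 2 libraries summing to fewer than 20 tags. A log2 ratio within 0.5 of 0 was found in 31.4% of the bins, against 57% in euchromatin.

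Gain at a milder threshold was also common. A log2 ratio of −1 or less, which is at least 2 times as many tags in EHMTDD1 after adding 1, occurred in 536 bins (8.50%, 7.84 to 9.22%), against 3.05% of euchromatic bins. At a log2 ratio of at least 1 were 2010 bins (31.9%), against 13.8% in euchromatin. Other heterochromatin was also above the euchromatic shares. The share above the upper limit was 20.1% (18.7 to 21.6%) in the 1 Mb at the centromeric end of 3L, 16.4% (15.5 to 17.4%) on 3RHet and 15.3% (14.5 to 16.2%) on 2RHet. The share at or below −1 was 7.01% in the centromeric end of 3L, 10.4% on 3RHet and 12.8% on 2RHet. With 1 library per genotype these regions were not tested against 3LHet.

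The loss bins had a median of 3 tags in EHMTDD1 and 26 in EHMT+, both below the medians of all bins on the scaffold. Counting each tag once by its midpoint, they contained 2211 EHMTDD1 tags and 18074 EHMT+ tags, which is 1.40% of the EHMTDD1 tags and 12.2% of the EHMT+ tags of the scaffold. In 352 of the 1052 bins EHMTDD1 had no tag at all, and in 300 EHMT+ itself had fewer than 10 tags. Outside the loss bins the balance was the other way. The remaining 5252 bins held 155282 EHMTDD1 tags and 129786 EHMT+ tags, a ratio of 0.836, with a median log2 ratio of −0.14. The gain bins at or below −1 had a median of 33 tags in EHMTDD1 and 12 in EHMT+ and held 11.1% of the EHMTDD1 tags and 5.02% of the EHMT+ tags. These values describe bins that were chosen by the ratio.

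The scaffold was next followed in windows of 10 kb, counting each tag once. Of 256 windows, 225 had 50 tags or more when the libraries were summed. The median window had 622 tags in EHMTDD1 and 604 in EHMT+, and the windows ranged from 19 to 2575 tags in EHMTDD1 and from 15 to 1998 in EHMT+. Over windows the log2 ratio had a median of −0.11 and an SD of 0.58. A log2 ratio of at least 1 (loss) was found in 15 windows (6.67%, Wilson interval 4.08 to 10.7%), where 0.987% of 11449 euchromatic windows had it. A log2 ratio of −0.5 or less (gain) was found in 34 windows (15.1%, 11 to 20.4%), where 1.07% of euchromatic windows had it. The counting interval of the ratio lay wholly above 1 in 65 windows (28.9%, against 21.6% in euchromatin) and wholly below 1 in 97 windows (43.1%, against 22.5%).

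**Figure D1:**
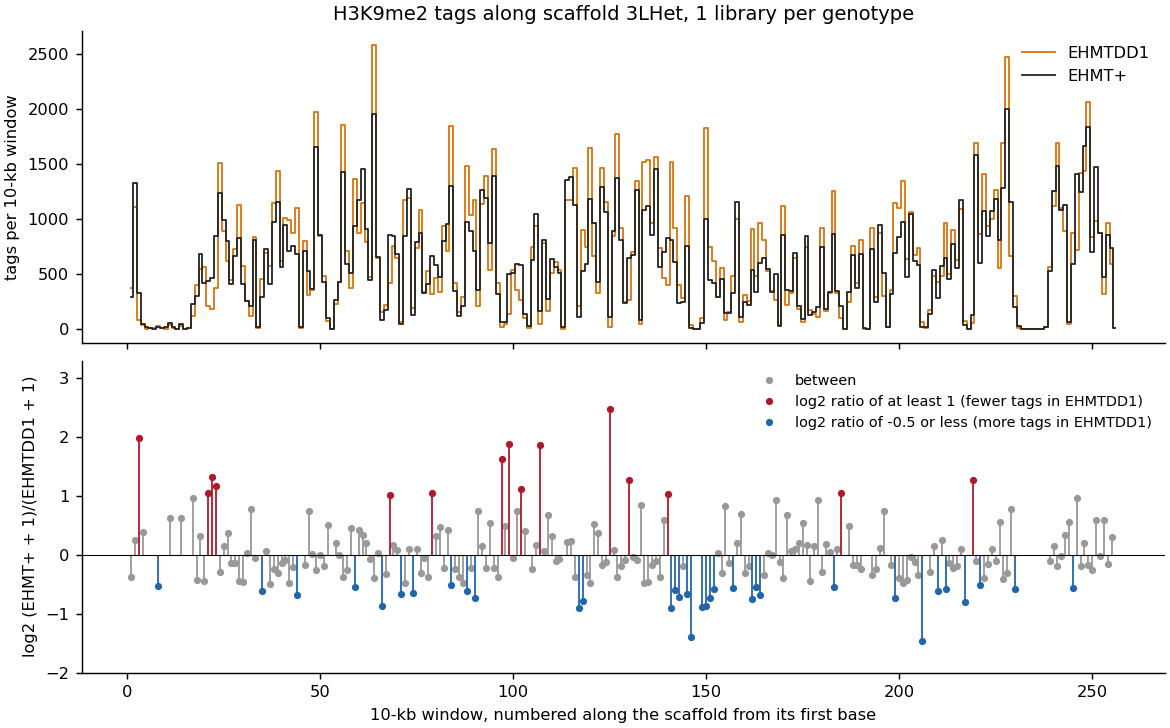
Tags per 10-kb window in EHMTDD1 and EHMT+ (upper panel) and the log2 ratio of EHMT+ to EHMTDD1 (lower panel) for windows in order along 3LHet; windows with fewer than 50 tags have no point in the lower panel. The 15 loss windows stand up to 2.47 and mostly alone, and the 34 gain windows reach −1.46 and are densest just beyond the middle of the scaffold.

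Windows with strong loss were mostly single. Of the 15, 12 had no neighbour in the same class, and only 1 stretch joined 3 of them, from 200001 to 230000. That stretch held 773 tags in EHMTDD1 and 1749 in EHMT+, with the EHMTDD1 count below the EHMT+ count in each of its windows (210 against 437, 187 against 467 and 376 against 845). Of its 100 bins with a tag, 29 were above the upper limit. It lies in the longest island of the scaffold. The highest ratio of all windows was at 1240001 to 1250000, with 19 tags in EHMTDD1 and 110 in EHMT+, a log2 ratio of 2.47. Next came 20001 to 30000, with 83 tags in EHMTDD1 and 331 in EHMT+ (1.98). The other 3 of the 5 highest lay close to each other. From 980001 to 990000 there were 134 EHMTDD1 tags and 497 EHMT+ tags (1.88), from 1060001 to 1070000 there were 45 and 167 (1.87), and from 960001 to 970000 there were 21 and 67 (1.63). None of these 5 windows was rich in EHMT+ tags, whose median over windows was 604.

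The classes have unequal limits, and their numbers are not compared for that reason. At equal limits, 41 windows were at 0.5 or above and 34 at −0.5 or below, while 15 were at 1 or above and 2 at −1 or below. Of the 34 gain windows, 20 stood alone and 14 formed 5 stretches of 2 to 4 windows. The longest was from 1480001 to 1520000, with 3299 tags in EHMTDD1 and 1917 in EHMT+, a log2 ratio of −0.78. From 1400001 to 1430000 there were 2837 EHMTDD1 tags and 1662 EHMT+ tags (−0.77), and from 1440001 to 1460000 there were 1246 and 774 (−0.69). A stretch from 1610001 to 1640000 had 2362 EHMTDD1 tags and 1475 EHMT+ tags (−0.68). The remaining stretch, from 1160001 to 1180000, had 1114 and 638 (−0.80). The first 3 named here follow each other closely. Over the whole stretch from 1400001 to 1520000, chosen after its values were seen, 9 of 10 windows with enough tags were in the gain class and the tags numbered 7663 in EHMTDD1 and 4601 in EHMT+. Only 4 of its 208 bins (1.92%) were above the upper limit, whereas 50 (24.0%) were at or below −1. This region also holds the second longest stretch without tags.

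The lowest log2 ratios of single windows came partly from sparse ones. From 2050001 to 2060000 there were 68 tags in EHMTDD1 and 24 in EHMT+ (−1.46), and from 1450001 to 1460000 there were 41 and 15 (−1.39), with 9 and 3 bins holding tags. The window from 1400001 to 1410000 had many tags, 1520 in EHMTDD1 and 809 in EHMT+ (−0.91), spread over 31 bins. The windows from 1160001 to 1170000 and from 1480001 to 1490000 had 214 and 101 tags in EHMTDD1, against 114 and 54 in EHMT+ (−0.90 and −0.89).

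By segments of 100 kb the loss bins were present almost everywhere while the totals stayed close. Of 26 segments, 25 had a larger share of bins above the upper limit than euchromatin, with a median of 16.2%. The segment from 1000001 to 1100000 had the highest share, 31.7%, with 3910 tags in EHMTDD1 and 4904 in EHMT+. The segment from 1400001 to 1500000 had the lowest, 1.89%, with 6294 tags in EHMTDD1 and 3736 in EHMT+, and was the only one whose log2 ratio was beyond 0.5 in either direction (−0.75). The segment from 2200001 to 2300000 had the highest EHMT+ density, 129 tags per kb with 141 in EHMTDD1, and 20.1% of its bins were above the upper limit. The segment from 100001 to 200000 had the lowest EHMT+ density, 36.6 tags per kb with 35.8 in EHMTDD1, and a share of 11.8%. The first 128 windows of the scaffold held 11 of the 15 loss windows and 12 of the 34 gain windows, and the other 128 held 4 and 22.

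Loss bins also lay in windows with more tags in EHMTDD1 than in EHMT+, by any margin. At least 1 loss bin occurred in 193 of the 225 windows. Among them were 100 windows with more tags in EHMTDD1 in total, which held 346 of the 1004 loss bins in these windows. Neither count of windows was taken in euchromatin, so these counts do not set the scaffold apart from it. The 15 loss windows held 145 loss bins (14.4%), and the windows between the classes held 820 (81.7%), close to their 80.6% of all bins with a tag. The gain windows held 39, as follows from their choice by a low ratio.

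To see how long the altered segments were, consecutive bins were joined. The 1052 loss bins formed 497 runs. There were 224 single bins, and 61 runs reached 4 bins or more. Runs of at least 4 bins held 31.4% of the loss bins on 3LHet and 23.2% in euchromatin. The 536 gain bins formed 322 runs. There were 184 single bins, and 17 runs reached 4 bins or more, holding 15.1% of the gain bins on 3LHet and 4.80% in euchromatin. For windows with at least 50 tags, the SD of the log2 ratio over 3LHet was 1.00 at 300 bp, where this minimum kept only bins with many tags, 1.16 at 600 bp, 0.79 at 3 kb, 0.58 at 10 kb and 0.22 at 100 kb. In euchromatin the values at these sizes were 0.65, 0.64, 0.43, 0.29 and 0.17. The correlation of the log2 ratio between bins (Pearson r, a description over bins of the same libraries) was 0.72 for adjacent bins, which share tags, 0.25 at 1200 bp, 0.10 at 3 kb and 0.01 at 6 kb.

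The run of loss with most tags went from 1198801 to 1202700 and covered 13 bins. Bin by bin it had 2, 3, 3, 1, 2, 1, 7, 20, 22, 15, 8, 8 and 11 tags in EHMTDD1, against 57, 71, 93, 103, 89, 63, 66, 91, 86, 74, 71, 67 and 63 in EHMT+. The EHMTDD1 counts were lowest in the first 6 bins and stayed under every EHMT+ count throughout. By midpoint the run held 55 EHMTDD1 tags and 498 EHMT+ tags, a ratio of 9.05 (6.84 to 12.2). Its sides were unlike farther out. The 8 bins that follow it had 7 to 39 tags in EHMTDD1 and 43 to 72 in EHMT+, so that the deficit went on at a smaller size. Directly before it, the bins from 1197901 to 1198800 had 12, 30 and 22 tags in EHMTDD1, against 29, 74 and 75 in EHMT+, also a smaller deficit. Farther upstream, from 1196401 to 1197600, 4 bins had 138, 147, 165 and 125 tags in EHMTDD1, against 73, 86, 78 and 55 in EHMT+, an excess in the mutant.

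The run from 2458201 to 2460900 lay at a still higher EHMT+ level. It had a deficit before it and an excess after it, past the nearest bin. Its 9 bins had 15, 9, 10, 8, 7, 9, 9, 18 and 34 tags in EHMTDD1, against 64, 96, 112, 93, 79, 79, 71, 98 and 137 in EHMT+. The 8 bins before it had 27 to 107 tags in EHMTDD1 and 53 to 135 in EHMT+. After it EHMTDD1 climbed to 164, 265, 268 and 295 tags in the bins from 1800 bp to 2700 bp past the centre, against 96, 144, 150 and 179 in EHMT+. In both runs the averages over the bins alongside were close between the libraries. They were 57.4 in EHMTDD1 and 59.7 in EHMT+ for the run at 1198801, and 113 and 105 for the run at 2458201. Bins with an excess and bins with a deficit offset each other.

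The other long runs of loss had lower counts. From 2082901 to 2085300, 8 bins had 3 to 7 tags in EHMTDD1 and 23 to 63 in EHMT+, with 57.1 and 40.1 tags per bin alongside. From 19501 to 22200, 9 bins had 2 to 18 tags in EHMTDD1 and 42 to 100 in EHMT+. This run is the main part of the loss window at 20001, and the bins beside it were also lower in EHMTDD1, at 15.8 against 41.0. The longest run, 14 bins from 1783801 to 1788000, was in a sparse segment, with 0 to 3 tags per bin in EHMTDD1 and 3 to 23 in EHMT+, and 7 and 98 tags by midpoint.

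**Figure D2:**
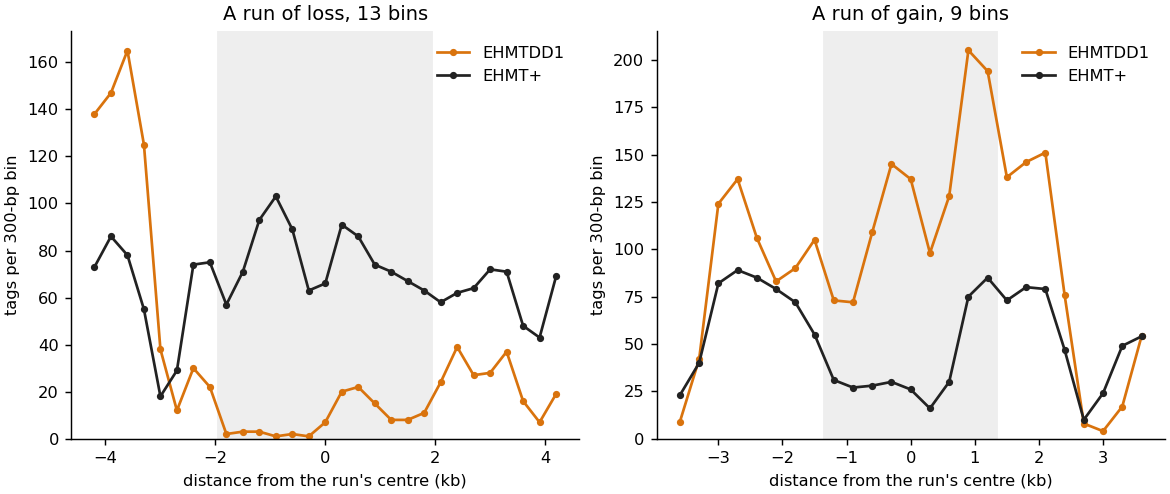
Tags per 300-bp bin (vertical axis) by distance from the centre of the run (horizontal axis, kb) in EHMTDD1 and EHMT+, for the 13-bin run of loss from 1198801 and the 9-bin run of gain from 1406401, with 8 bins on each side; grey marks the run. EHMTDD1 stays at or below 22 tags in the loss run while EHMT+ has 57 to 103, and EHMTDD1 has 72 to 205 tags in the gain run while EHMT+ has 16 to 85.

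The longest runs of gain differed in form. From 1406401 to 1409100, 9 bins had 73, 72, 109, 145, 137, 98, 128, 205 and 194 tags in EHMTDD1, against 31, 27, 28, 30, 26, 16, 30, 75 and 85 in EHMT+. EHMT+ had 16 to 31 tags in the first 7 bins of the run, while it had 55 to 89 in the 6 bins before it and 73 to 80 in the 3 bins after it. EHMTDD1 had at least 72 tags throughout the run and was also above EHMT+ in those 9 bins alongside. The gain here thus coincided with a dip in EHMT+. From 1980001 to 1982700, 9 bins had 96 to 183 tags in EHMTDD1 and 44 to 81 in EHMT+. Alongside, the averages were 63.1 and 49.3 tags per bin, so that the run was chiefly a rise in EHMTDD1 over its average. That average includes a deficit from 1977901 to 1979400, with 2 to 24 EHMTDD1 tags per bin against 20 to 62 in EHMT+. The bins touching the run had 78 and 144 EHMTDD1 tags. From 414601 to 416100, 5 bins had 20 to 231 tags in EHMTDD1 and 6 to 102 in EHMT+. The 2 other runs of 5 bins had lower levels. From 1166701 to 1168200 there were 25 to 73 tags per bin in EHMTDD1 and 7 to 26 in EHMT+, and from 650401 to 651900 there were 14 to 62 and 6 to 28.

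Over the longer runs together the drop was in EHMTDD1. In all 61 runs of loss with at least 4 bins, EHMTDD1 was below its flanks, with a median of 5 tags per bin in the run and 42.8 beside it. EHMT+ had a median of 42.4 tags per bin in these runs and 47.6 beside them, and was below its flanks in 33 of the 61. Averaged over the 45 runs with at least 50 tags, EHMTDD1 had 10.7 tags per kb within 500 bp of the centre and 73.0 tags per kb at 2 to 5 kb, whereas EHMT+ had 90.8 and 77.8. Over 10 such runs of gain, EHMTDD1 had 170 tags per kb at the centre and 61.9 away from it, and EHMT+ had 62 and 51.9. The runs were chosen by the ratio, so the contrast at the centre follows from the choice. The end of a run is also set by the limit, and no profile around other bins was made. The return on both sides is therefore only a description.

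**Figure D3:**
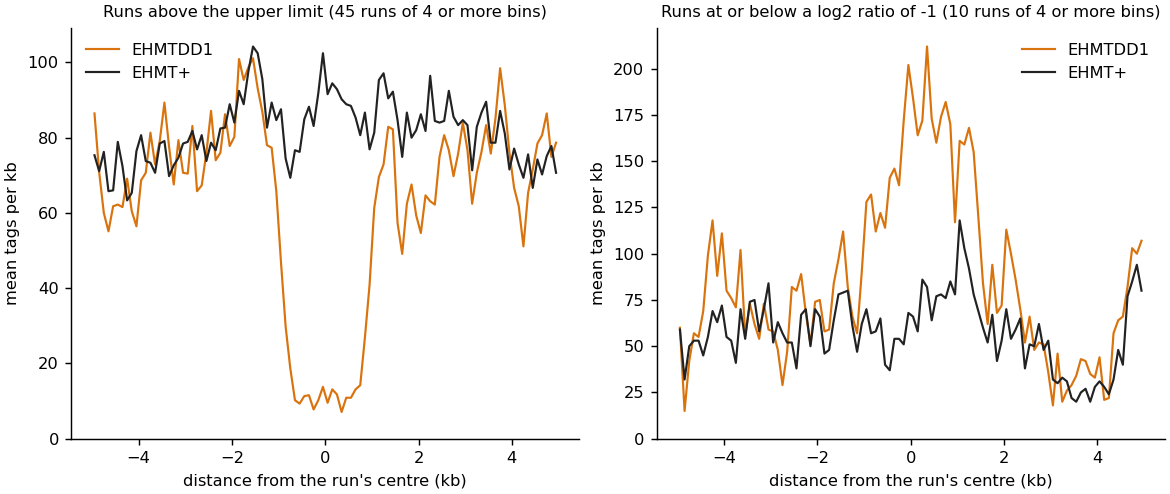
Mean tags per kb (vertical axis, 100-bp steps) by distance from the centre of runs of 4 or more bins with at least 50 tags on 3LHet, for 45 runs of loss (left) and 10 runs of gain (right). In runs of loss EHMTDD1 falls to about 10.7 tags per kb over roughly the width of the run while EHMT+ stays near 90.8, and the lines come close on either side.

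Whether loss followed the EHMT+ level was asked with the level and the ratio taken from different tags, since both contain the EHMT+ count. Over the 6304 bins, Spearman's rho was −0.14 between the level in plus-strand EHMT+ tags and the log2 ratio of minus-strand tags, as a description over bins that share libraries and neighbouring tags. It was −0.070 over the bins summing to 20 tags or more and −0.039 over the 225 windows. In the euchromatic bins rho was 0.00186. Loss therefore did not increase with the EHMT+ level on 3LHet. With the level taken from EHMTDD1 in place of EHMT+, rho was −0.49 over bins and −0.37 over windows. EHMTDD1 is the denominator of the ratio, so a negative value is partly built in, and no euchromatic value was taken. The order of the bins was broadly shared, with a rho of 0.82 between the EHMTDD1 and EHMT+ counts over bins and 0.91 over windows.

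By class of EHMT+ count, the share of loss bins was highest at 5 to 19 tags. It was 16.3% among bins with 0 to 4 EHMT+ tags, 30.3% (Wilson interval 26.6 to 34.2%) among bins with 5 to 9 EHMT+ tags, 24.1% at 10 to 19, 16.9% at 20 to 39, 16.4% at 40 to 79 and 7.68% (6.36 to 9.25%) from 80 to under 160. A bin needed at least 3 EHMT+ tags to pass the limit. In euchromatin the shares of these classes were 11.2%, 13.8%, 7.19%, 4.70%, 5.02% and 9.20%. Of these classes, only that from 80 to under 160 EHMT+ tags had a share on 3LHet that was not above the euchromatic share. In that class the median count was 120 tags in EHMTDD1 and 98 in EHMT+, with a median log2 ratio of −0.27. With the level from plus-strand tags and the ratio from minus-strand tags the median was −0.27 as well. In that comparison a log2 ratio of at least 1 was found in 31.5% of bins in the class of 5 to 9 tags, 34.2% at 10 to 19, 35.0% at 20 to 39, 31.0% at 40 to 79 and 16.8% from 80 to under 160, with plus-strand counts doubled to set the class. With level and ratio from all tags, the shares at the same threshold were 45.9%, 37.8%, 32.1%, 29.3% and 16.7%. Both gave the lowest share of these classes from 80 tags, but the decline from 5 to 79 tags was seen only with all tags. For gain at or below −1, all tags put 3LHet below euchromatin in bins with few EHMT+ tags (12.7% against 19.6% at 5 to 9). From 20 to under 160 tags 3LHet was higher (6.74% against 1.78% at 20 to 39, and 5.75% against 0.545% at 40 to 79). With plus-strand levels and minus-strand ratios, 3LHet was higher at 5 to 9 (12.9% against 10%) and at 10 to 19 (12.1% against 8.71%). It was also higher at 40 to 79 (8.1% against 3.02%), and the shares were close at 0 to 4 (14.5% against 14.4%). The lower share of gain in bins with few EHMT+ tags was thus seen only with all tags. Of the 25 bins with 160 or more EHMT+ tags, 0 were above the limit, which allows a share of up to 12% (3 counts of 25; Wilson upper bound 13.3%), and their median was 243 tags in EHMTDD1 and 170 in EHMT+.

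**Figure D4:**
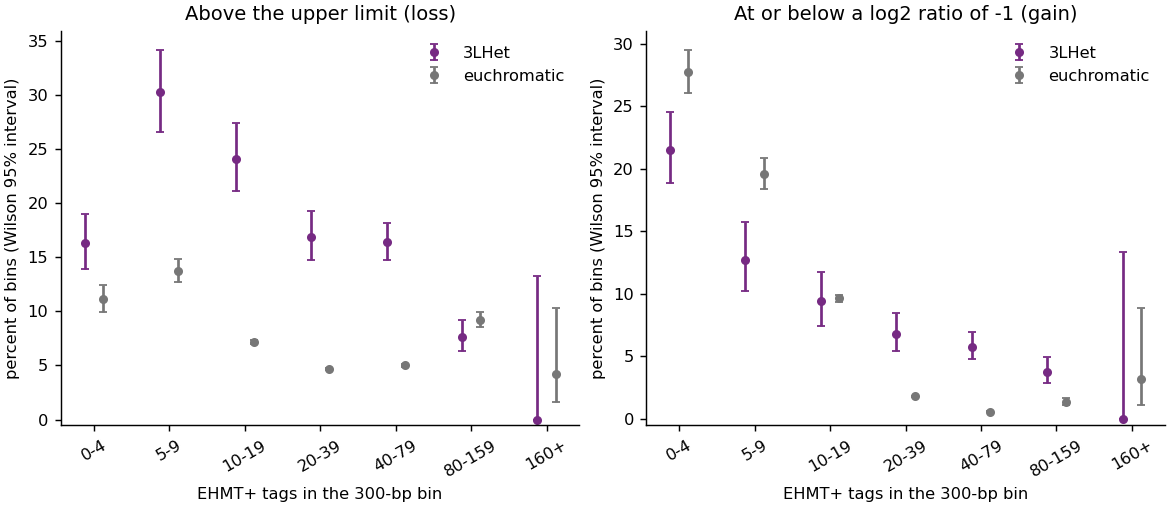
Share of 300-bp bins (vertical axis, percent, with Wilson 95% intervals) above the upper limit (left) and at or below a log2 ratio of −1 (right) by EHMT+ tags in the bin (horizontal axis), on 3LHet and in euchromatin. On 3LHet the share of loss is 16.3% at 0 to 4 tags and falls from 30.3% at 5 to 9 tags to 7.68% in the class from 80 tags, and the share of gain from 21.5% in the lowest class to 3.73%. Both panels use all tags, so level and ratio share the EHMT+ count.

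Loss also occurred at high EHMT+ levels. Of the 643 bins with at least 100 EHMT+ tags, 448 (69.7%) had more tags in EHMTDD1, and 29 (4.51%) were above the upper limit. Over all bins of 3LHet the share above this limit was 16.7%. Neither share at this level was taken in euchromatin. Of the 61 longer runs of loss, 32 had an EHMT+ level of at least 40 tags per bin. The levels of all 61 ranged from 5.20 to 108 tags per bin, and those of euchromatic runs were not taken. The 5 windows with most EHMT+ tags were mostly higher in the mutant. From 2270001 to 2280000 there were 2467 tags in EHMTDD1 and 1998 in EHMT+, from 630001 to 640000 there were 2575 and 1952, from 2480001 to 2490000 there were 2066 and 1833, and from 480001 to 490000 there were 1972 and 1653. The exception was 2470001 to 2480000, with 1438 tags in EHMTDD1 and 1663 in EHMT+. When the windows were divided by plus-strand EHMT+ tags into 3 classes of 75, the median minus-strand log2 ratio was −0.05 in the lowest class, −0.14 in the middle and −0.10 in the highest. The SD was 0.77 in the lowest class, 0.57 in the middle and 0.42 in the highest, and windows with fewer tags also have larger counting error. From the lowest class to the highest they held 6, 6 and 3 loss windows and 16, 13 and 5 gain windows.

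The tags of each strand gave a partial check on counting error, although both strands come from the same libraries. Of 17 windows with a log2 ratio of at least 1 on the plus strand, all 17 were above 0 on the minus strand and 9 were also at least 1, with a median of 1.14. Of 39 windows at −0.5 or less on the plus strand, all 39 were below 0 on the minus strand and 28 were also at −0.5 or less, with a median of −0.62. Over windows the log2 ratios of the strands had a Spearman's rho of 0.91, and over bins with at least 20 tags 0.72. The strands cannot show what differs between the 2 libraries as preparations.

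Using the sequenced 36 bp of each tag, EHMTDD1 lacked any read over 201 stretches of 300 bp or more that held 12 or more EHMT+ reads, and EHMT+ had 0 such stretches. A stretch can include positions that neither library covers. Per Mb of bins with a tag this was 106 for EHMTDD1, against 71.4 in euchromatin. The EHMT+ density over such bins was also higher on 3LHet, at 78.2 tags per kb against 53.9. What part this has in the rate was not tested. The euchromatic rate for EHMT+ was 0.342 per Mb, so that few or none were to be found on a scaffold of this length. The median length was 552 bp. The stretch with most EHMT+ reads was 703 bp from 1199470 to 1200172, where EHMT+ had 108 reads and EHMTDD1 had 0, and it lies inside the 13-bin run of loss described above. A stretch of 1374 bp from 1271920 to 1273293 had 62 EHMT+ reads. Whether these stretches reflect lost H3K9me2 or sequence that the EHMTDD1 library did not recover cannot be told apart with 1 library per genotype.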

How the data were processed

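H3K9me2 ChIP-seq of larvae was sequenced as 36-bp reads. The authors aligned them to BDGP 5 (dm3, per the submitters' processing notes) with 1 mismatch allowed and considered uniquely placed tags only. They lengthened each tag to 300 bp along its strand and equalized the libraries to the tag number of the smaller one. The deposited files hold tag positions and strands, read here as 1-based. Both the extension and the choice of tags removed for equal size affect the counts.

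Here tags were counted in 300-bp bins (every bin overlapped) and in 10-kb windows (by midpoint, at least 50 tags). The log2 ratio of EHMT+ to EHMTDD1 used a pseudocount of 1. Limits came from the 5 large arms, less 1 Mb at the centromeric end, with chromosome 4. Named regions were the 5 longest runs of loss and of gain, the 5 highest and lowest windows, the 5 with most EHMT+ tags, and neighbouring windows of one class. The scaffold, rules and lists were chosen with earlier results of these data known. Counting and the ratio were tested on simulated data, and the joining of runs on a short made-up example. Single bins are limited by depth, with a median of 26 tags in EHMTDD1 and 40 in EHMT+. Other settings of the pseudocount, minimum tags, counting, grid, bin size, strand, limits and scaling were tried, and 2 of them were chosen after the data were seen. The tools were Matplotlib 3.10.9, pandas 2.3.3, SciPy 1.17.1, NumPy 2.4.6 and Python 3.11.15.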

Additional observations from a re-analysis of the deposited data

How the results depend on the processing

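No paired analysis was possible because there is a single library per genotype. The number of bins above the upper limit, 1052, was within 1.5 times this value under 8 of 12 alternatives. It was 658 in bins summing to 20 tags or more (13.6% of bins, against 4.90% in euchromatin), also 658 with 600-bp bins (19.8%), 459 with limits of 3 SD and 700 without bins where EHMTDD1 has no tag. Leaving aside the removal of bins without EHMTDD1 tags or beside empty bins, the share on 3LHet was more than 2 times that in euchromatin in each of the 10 other alternatives. The 104 bins below the lower limit were 59 by midpoint, 42 with at least 20 tags, 6 with limits of 3 SD and 63 without bins next to a bin without tags. The median log2 ratio of 0.11 was 0.18 by midpoint, −0.065 with at least 20 tags, 0.20 with EHMTDD1 scaled to the EHMT+ total of 3LHet and 0 without bins where EHMTDD1 has no tag. The 15 loss windows were 39 of 406 windows at 5 kb and 3 of 119 at 20 kb, and the 34 gain windows were 85 and 11 at these sizes and 22 after scaling to the 3LHet total. The Spearman rank correlation between level and ratio, −0.14, was −0.070 with at least 20 tags and −0.039 over 10-kb windows. The ratio of totals, 0.939, was within its counting interval in both alternatives. Leaving out bins beside empty bins or without EHMTDD1 tags was chosen after the data were seen. The number of bins or windows changes such counts by construction, and otherwise the cause was not tested. With 1 library per genotype, no replicate could be left out.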

Other observations

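Bins next to a bin without tags in either library numbered 653 on 3LHet, with a median of 1 tag in EHMTDD1 and 3 in EHMT+. Of these, 20.5% (Wilson interval 17.6 to 23.8%) were above the upper limit and 18.1% at or below a log2 ratio of −1. Farther than 16 bins from an empty bin were 1978 bins, with medians of 52 tags in EHMTDD1 and 65.5 in EHMT+, of which 15.1% (13.6 to 16.7%) were above the upper limit and 5.11% at or below −1. Both shares were thus higher at the edges of islands, the share of gain bins by more. Among bins with at least 20 tags, 1.45% of 69 edge bins were above the upper limit and 34.8% at or below −1, against 13.8% and 5.05% of 1860 bins far inside. The edge bins had few tags, and what part this has in these shares was not tested.

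The middle of the distribution on 3LHet differed between classes of EHMT+ count. The median log2 ratio was 0.63 among bins with 5 to 9 EHMT+ tags, 0.38 at 10 to 19, 0.25 at 20 to 39, 0.09 at 40 to 79 and −0.27 from 80 to under 160. In euchromatin the same classes had medians of 0, −0.20, 0, 0.07 and 0. With the level from plus-strand tags and the ratio from minus-strand tags, the 3LHet medians in these classes were 0, 0, 0.27, 0.10 and −0.27. The positive medians of the classes below 20 tags were thus seen only with all tags. A single strand also has fewer tags per bin. What part this or the shared count has in the difference was not tested.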
